A study of Homo sapiens with 40 samples.

Results

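Immediate early response genes are transcribed within minutes of a stimulus, before any new protein is made, and their transcripts are short-lived. Growth factors reach them through the RAS and MAP kinase cascade, which acts on serum response factor and its ETS partners at CArG boxes and on CREB and ATF proteins at cyclic AMP response elements (CRE). Many of the products are transcription factors, among them the FOS and JUN proteins that pair to form AP-1, while others such as DUSP1 shut the cascade down again. These genes are also known to respond to the dissociation and sorting of cells.

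The 10 genes followed here are FOS, FOSB, JUN, JUNB, JUND, EGR1, ATF3, IER2, DUSP1 and MYC, picked by name out of the 60279 genes listed in the count tables. Levels were read in individual T47D cells, a line of luminal type derived from a human breast tumour, taken at passage 10. Whether all cells came from the same flask is not given in the sources used here. Cells were detached with TrypLE, which was stopped with growth medium containing serum, and were then washed and stained. They were sorted as EpCAM+/CD49f+ cells straight into lysis buffer. No stimulus was applied as a treatment, and there was no untreated or unsorted control group. Poly(A) RNA was turned into full-length cDNA by 1 of 3 protocols: G&T, which first pulls mRNA away from genomic DNA on oligo-d(T) beads, the Takara SMART-seq HT kit, and the NEB NEBNext Single Cell/Low Input kit. The labels give 13 G&T, 13 Takara and 14 NEB cells. Of these, 11 cells per protocol were used, leaving out G&T C2 and F1, Takara C2 and F1, and NEB B2, F1 and F2 (letters and numbers are plate wells), the 7 cells that failed at least 1 of the quality thresholds.

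The labels name no replicate cultures, plates or runs within a protocol, so each protocol counted as 1 sample, and its effect and that of any culture, plate or run its cells shared cannot be told apart. For this reason no test was made between protocols. Levels are given as pooled CPM, the reads of a gene over the 11 cells scaled to all reads on genes of those cells, with a 95% Poisson interval that covers counting error only, and as the range and SD over cells. The kept cells held 658154 to 1166633 reads on genes in G&T, 818512 to 1287911 in Takara and 624772 to 963816 in NEB, so that 3 reads, the limit set by a count of 0, stood for 0.316, 0.256 and 0.376 CPM of the pooled cells. This limit, and each lowest fold given below for a gene at 0, covers counting error only and not the spread between cells. No 2 cells had identical counts. All 10 luminal markers checked, among them EPCAM, KRT8, KRT18, GATA3, ESR1 and PGR, had reads in every protocol. Their summed level per cell ran from 3986 to 15901 CPM in G&T, 10132 to 27001 in Takara and 2215 to 7331 in NEB. Of 9 markers of other cell types, 7, 2 and 1 had any read, with PTPRC, PECAM1, CD3E and CD68 at 0 in Takara and NEB. In G&T, VWF had 16 reads and PECAM1 had 12, each in 2 cells, and PTPRC had 2 reads in 1 cell. The summed level of these 9 markers stayed at or under 44.6, 48.5 and 50.04 CPM per cell, most of it COL1A1 at 12, 12.6 and 10.8 pooled CPM. COL1A1 had reads in 11, 10 and 9 of the 11 cells of G&T, Takara and NEB.

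Control elements in the 250 bases before the transcription start were read from RefSeq promoter windows of GRCh38.p14, which were used for 9 of the 10 genes, all but MYC. They are shown because serum response and cyclic AMP response elements are the textbook route into these genes. A CArG box (CC, 6 letters A or T, GG) was present in EGR1 only, in 2 copies, and in 1.16% of all 35116 windows. The CRE palindrome TGACGTCA was present in JUND and DUSP1, and in 1.65% of all windows. A TATAAA box lay in 5 of the 9 genes (FOS, FOSB, JUNB, ATF3 and DUSP1) and in 10.7% of all windows, and GGGCGG lay in 7 of the 9 and in 42.6%. The AP-1 letters TGACTCA, present in 4.2% of windows, were in none of the 9. Both strands were searched, and a match describes letters in this window only. In the stretches below, each 5′ to 3′ on the gene's own strand, capitals mark the matched element.
EGR1, CArG box, chr5:138465366-138465391, plus strand: cggtcctgCCATATTAGGgcttcctg
EGR1, CArG box, chr5:138465388-138465413, plus strand: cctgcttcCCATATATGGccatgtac
DUSP1, CRE, chr5:172771305-172771328, minus strand: agggcgggTGACGTCAccgccccg
JUND, CRE, chr19:18281807-18281830, minus strand: cgcccccaTGACGTCAacccacaa
FOS, TATA box, chr14:75278787-75278808, plus strand: acgcttgtTATAAAagcagtgg
FOSB, TATA box, chr19:45467958-45467979, plus strand: cccgggcaTATAAAtacaggct
JUNB, TATA box, chr19:12791447-12791468, plus strand: tagcgcggTATAAAggcgtgtg
DUSP1, TATA box, chr5:172771212-172771233, minus strand: aggccgcaTATAAAcgcgctcc
In FOS, FOSB, JUNB and DUSP1 the TATA letters began 30 to 33 bases before the start. The 2 CArG boxes of EGR1 began 105 and 83 bases before it. The TATA letters of ATF3 began 230 bases before the start of a further ATF3 window, at 212614768 to 212615067 of chromosome 1. A gene with more than 1 window counted if any of them matched, while the shares are per window.

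Together the 10 genes took up a small part of each library. They held 914 of the pooled G&T reads (96.2 CPM), 1359 Takara reads (116 CPM) and 314 NEB reads (39.4 CPM). Per cell their summed level ran from 43.1 to 174 CPM in G&T (median 86.5), 71.0 to 190 CPM in Takara (median 104) and 0 to 137 CPM in NEB (median 24.0), so the ranges of all 3 protocols overlapped. All 10 genes had reads in G&T and Takara. In NEB 6 had reads, and FOS, FOSB, JUN and DUSP1 had none in any of the 11 kept cells.

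**Figure D1:**
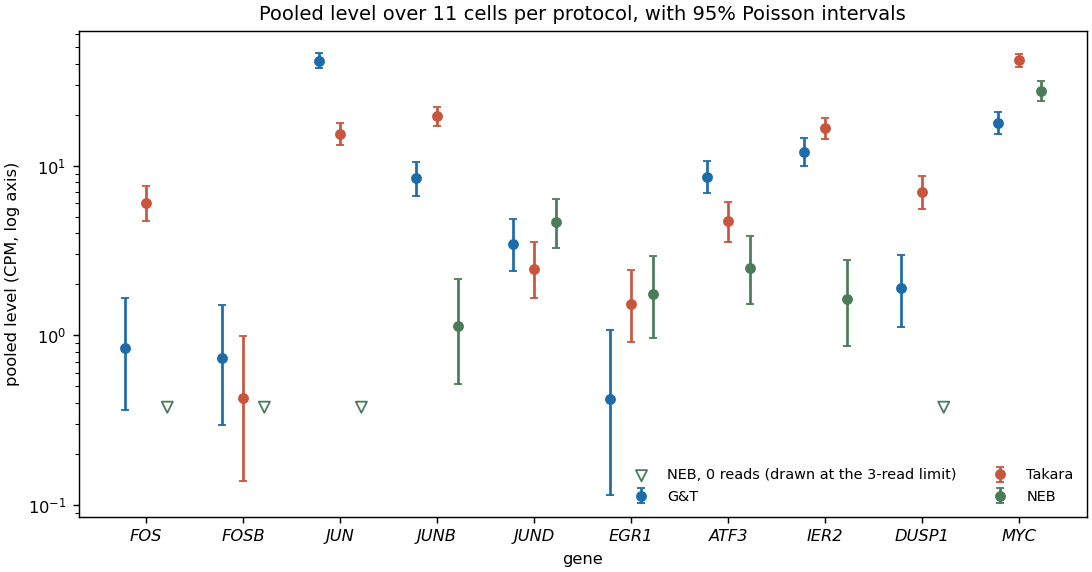
Pooled level of each gene in CPM on a log axis, summed over 11 cells of G&T (blue), Takara (red) and NEB (green), with bars for 95% Poisson intervals. Open triangles mark the 4 genes with 0 NEB reads, drawn at the limit of 3 reads (0.376 CPM), far under the 41.8 CPM of JUN in G&T.

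Between Takara and G&T, 4 of the 10 genes were past 2-fold higher in Takara (FOS, JUNB, DUSP1 and MYC), where 16.2% of all 15346 genes compared were, and 1 was past 2-fold higher in G&T (JUN), where 24.5% were. Ratios here and in what follows are log2 ratios of pooled CPM with 1 CPM added, over genes with at least 10 reads in the 2 protocols together. Between Takara and NEB, 5 of the 9 genes with enough reads were higher in Takara (FOS, JUN, JUNB, IER2 and DUSP1; 42.8% of 13828 genes) and 0 were higher in NEB (23.3%). Between G&T and NEB, 5 of 8 were higher in G&T (JUN, JUNB, ATF3, IER2 and DUSP1; 48.4% of 14875 genes) and 0 were higher in NEB (19.1%). The median log2 ratio of the members was 0.64 for Takara over G&T, 2.75 for Takara over NEB and 1.5 for G&T over NEB, beside −0.13, 0.61 and 0.90 over all genes compared. With the genes at 0 reads set at the 3-read limit and no CPM added, the medians of the members were 0.84, 3.36 and 2.06. The comparisons share protocols, and the same libraries stand behind each pair of counts.

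The spread between cells was wide beside these gaps. In none of the 3 pairs did all cells of 1 protocol lie above all cells of the other for any of the 10 genes. A protocol with a cell without a read cannot lie wholly above another. Only JUNB and IER2 in Takara had a read in every cell, so this outcome was nearly fixed in advance and says little about the spread. Over all genes that was so for 1.21% (Takara above G&T), 0.639% (G&T above Takara), 8.23% (Takara above NEB), 1.58% (NEB above Takara), 3.29% (G&T above NEB) and 1.02% (NEB above G&T). Of the 30 gaps between protocol means, 4 exceeded the larger of the 2 SDs over cells, namely JUNB, IER2 and DUSP1 between Takara and NEB and JUN between G&T and NEB. For 25 of the 30, by contrast, the counting interval of the ratio lay wholly above or below 1. These 2 counts were not made over all genes, so they do not set the 10 genes apart from others.

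**Figure D2:**
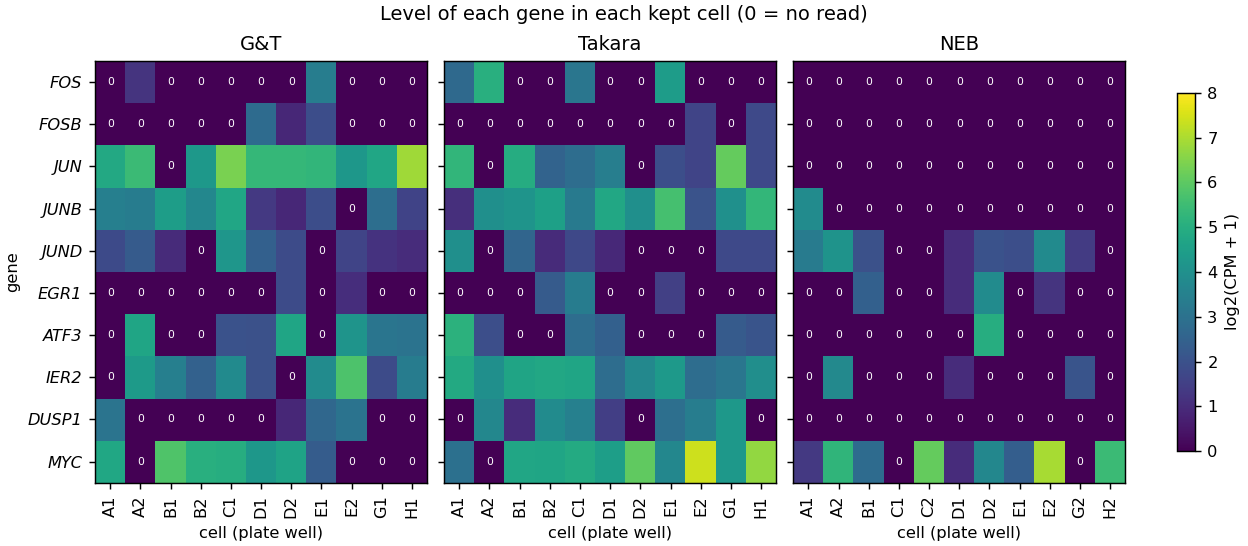
Level of the 10 genes (rows) in each of the 11 kept cells (columns, plate wells) of G&T, Takara and NEB, as log2(CPM + 1) by colour, with 0 printed where a cell had no read. JUNB and IER2 have reads in every Takara cell, while the FOS, FOSB, JUN and DUSP1 rows are empty in NEB.

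FOS (ENSG00000170345; GRCh38 chromosome 14, 75278826 to 75282230, plus strand, 4 exons) encodes the c-FOS subunit of AP-1 and is the classic serum-induced gene. It was read in few cells. In Takara it had 5 reads in A1, 34 in A2, 10 in C1 and 22 in E1, which are 5.65, 31.8, 7.76 and 20.5 CPM, and none in the other 7 cells. G&T had 1 read in A2 and 7 in E1, and NEB had none. Pooled FOS was 6.06 CPM in Takara (4.73 to 7.64) and 0.842 CPM in G&T (0.364 to 1.66), a ratio of 7.20 (3.46 to 17.3) and a log2 ratio of 1.94. The Takara level was at least 16.1-fold higher than the NEB limit of 3 reads, taking the Takara level as measured, and the exact lower limit of the ratio with the counting error of both was 12.8. These values leaned on single cells. Without Takara A2 the log2 ratio was 1.28 over G&T and 2.16 over NEB, and without G&T E1 it was 2.66 over G&T. Of 3046 genes within 2-fold of the Takara level of FOS, 29.6% had no NEB read and 5.2% had as few G&T reads.

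FOSB (ENSG00000125740; chromosome 19, 45467995 to 45475179, plus strand, 4 exons), a paralog of FOS that pairs with JUN proteins in the same way, was at the edge of detection. It had 7 reads in 3 G&T cells (4 in D1, 1 in D2 and 2 in E1) and 5 reads in 2 Takara cells (2 in E2 and 3 in H1). Its pooled level was 0.737 CPM in G&T (0.296 to 1.52) and 0.427 CPM in Takara (0.139 to 0.996), intervals that overlap. NEB had no read, but 70.5% of 2798 genes at a like Takara level had none either. FOS and FOSB were read together in 1 G&T cell (E1) and in no Takara cell.

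JUN (ENSG00000177606; chromosome 1, 58776845 to 58784048, minus strand, 1 exon in the canonical transcript) encodes c-JUN, the main partner of FOS in AP-1. It was the member with the highest level per length in G&T and was not read in NEB. In G&T it had reads in 10 of 11 cells, from 0 in B1 to 111 reads in H1 (median 37.5 CPM, highest 115 CPM). In Takara it had reads in 9 cells, with a median of 4.83 CPM and a highest value of 68.0 CPM in G1, whose 86 reads were 47.8% of the Takara total. The cells of the 2 protocols overlapped across most of their range. Pooled JUN was 41.8 CPM in G&T (37.8 to 46.1) and 15.4 CPM in Takara (13.2 to 17.8), a ratio of 2.72 of G&T over Takara (2.28 to 3.26). The log2 ratio of Takara over G&T was −1.39, and it was −2.10 without Takara G1.

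JUN in NEB stood at 0 of 7973692 pooled reads, so that the measured level was at least 111-fold higher in G&T and at least 40.8-fold higher in Takara than the 3-read limit. With the counting error of both protocols, the exact lower limits of the ratios were 89.9 and 32.9. All these limits take reads as independent, while the NEB reads of JUNB and of ATF3 each lay in 1 cell. They therefore do not bound what further NEB cells could hold. Without Takara G1 the log2 ratio of Takara over NEB fell from 4.03 to 3.32. Among 4088 genes within 2-fold of the G&T level of JUN, 5.5% had no NEB read, and among 3668 genes within 2-fold of its Takara level, 16.8% had none. The NEB cell B2, outside the kept cells because 28.4% of its reads were ERCC spike-ins, had 5 JUN reads (11.1 CPM).

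JUNB (ENSG00000171223; chromosome 19, 12791486 to 12793315, plus strand, 1 exon) encodes a second JUN protein, often described as a brake on c-JUN. It had a read in every Takara cell, from 1 read in A1 (1.13 CPM) to 52 in E1 (48.5 CPM), with a median of 15.0 CPM. In G&T it was read in 10 cells, from 0 in E2 to 25 reads in C1 (25.5 CPM), with a median of 6.34 CPM. In NEB 1 cell, A1, held all 9 reads (13.5 CPM). Pooled JUNB was 19.6 CPM in Takara (17.2 to 22.3), 8.42 CPM in G&T (6.68 to 10.5) and 1.13 CPM in NEB (0.516 to 2.14). Takara was 2.33 times G&T (1.80 to 3.05) and 17.4 times NEB (9 to 38.5), and G&T was 7.46 times NEB (3.74 to 16.9). The log2 ratio of Takara over G&T, 1.13, was close to the 2-fold line and lay under it without G&T D2 (0.98), G&T E2 (0.99), Takara E1 (0.91) or Takara H1 (0.97). Without NEB A1 the log2 ratio over NEB rose from 3.28 to 4.37 for Takara and from 2.15 to 3.24 for G&T. Of 3740 genes at a like Takara level, 20.7% had as few or fewer NEB reads. Of the 505 with at least 60% GC, 59.6% had. JUNB shares exonic sequence with HOOK2 on the opposite strand. The strand setting of the counts is not given in the sources used here, so how reads of the shared stretch were counted is not known.

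JUND (ENSG00000130522; chromosome 19, 18279694 to 18281622, minus strand, 1 exon), the JUN family member known for steady expression in resting cells, was the member whose levels lay closest together. It had reads in 9 G&T cells (highest 17.4 CPM in C1), 7 Takara cells (highest 14.7 CPM in A1) and 8 NEB cells (highest 16.4 CPM in A2). Medians over cells were 2.09, 0.967 and 2.80 CPM. Pooled JUND was 3.47 CPM in G&T (2.39 to 4.88), 2.48 CPM in Takara (1.66 to 3.55), and NEB stood at 4.64 CPM (3.27 to 6.40). NEB was 1.87 times Takara (1.12 to 3.16), and the interval of NEB over G&T, 0.813 to 2.20, included 1. No protocol pair was past 2-fold, except NEB over Takara once Takara A1 was left out (Takara over NEB then −1.19 on the log2 scale). JUND has the highest GC content of the 10 transcripts, 69.9%. Of 2423 genes at a like Takara level, 75.4% had as few or fewer NEB reads. Of the 463 with at least 60% GC, 94.4% had.

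ATF3 (ENSG00000162772; chromosome 1, 212565334 to 212620777, plus strand, 4 exons) encodes a stress-induced factor that pairs with JUN proteins. It was read in 7 G&T cells, with 24.9 CPM in both A2 and D2 and a median of 3.06 CPM, and in 6 Takara cells, where A1 alone held 30 of 55 reads (33.9 CPM). In NEB all 20 reads lay in D2 (30.4 CPM). Highest values were thus alike in the 3 protocols while the number of positive cells differed. Pooled ATF3 was 8.63 CPM in G&T (6.86 to 10.7), 4.69 CPM in Takara (3.54 to 6.11), and NEB stood at 2.51 CPM (1.53 to 3.87). G&T was 3.44 times NEB (2.09 to 5.93), a log2 ratio of 1.46 that rose to 3.27 without NEB D2. The same NEB cell held back the ratio of Takara over NEB, which was 0.70 with it and 2.51 without it. Without Takara A1, G&T was past 2-fold over Takara (Takara over G&T −1.54 against −0.76 on the log2 scale).

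EGR1 (ENSG00000120738; chromosome 5, 138465479 to 138469303, plus strand, 2 exons), a zinc finger factor induced by growth factors, had few reads in every protocol. It had 4 reads in 2 G&T cells, 18 in 3 Takara cells and 14 in 4 NEB cells. Takara C1 held 12 reads (9.32 CPM) and NEB D2 held 9 (13.7 CPM). Pooled EGR1 was 0.421 CPM in G&T (0.115 to 1.08), 1.54 CPM in Takara (0.910 to 2.43), and NEB stood at 1.76 CPM (0.960 to 2.95). The Takara and NEB intervals overlapped. NEB was 4.17 times G&T (1.31 to 17.4) and Takara 3.65 times G&T (1.2 to 14.8), yet with 1 CPM added neither passed 2-fold (log2 ratio of G&T over NEB −0.96, Takara over G&T 0.84). Without G&T D2 Takara passed 2-fold over G&T (1.18). Leaving out any of 10 single cells put NEB over G&T past 2-fold, with G&T D2 moving it most (−1.30), while leaving out NEB D2 brought it to −0.24. EGR1 and JUND were the members with their highest pooled value in NEB, with intervals that overlapped others in both cases.

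IER2 (ENSG00000160888; chromosome 19, 13150411 to 13154911, plus strand, 2 exons) encodes a small nuclear protein induced by growth factors. It was the steadiest member in Takara, where every cell had reads, from 6.21 CPM in D1 to 28.3 CPM in A1 (mean 16.9 ± 8.36 CPM, SD over 11 cells). In G&T it had reads in 9 cells, from 0 in A1 and D2 to 53.3 CPM in E2 (mean 11.7 ± 15.2 CPM), and in NEB in 3 cells, of which A2 held 10 of 13 reads. Pooled IER2 was 16.7 CPM in Takara (14.5 to 19.2), 12.1 CPM in G&T (9.99 to 14.5) and 1.63 CPM in NEB (0.868 to 2.79). Takara was 10.3 times NEB (5.86 to 19.6) and G&T was 7.42 times NEB (4.17 to 14.4), with log2 ratios of 2.75 and 2.32. Without NEB A2 they were 3.64 and 3.21. Without G&T E2 the G&T ratio over NEB was 1.69, and Takara passed 2-fold over G&T (1.06 against 0.44). Of 3695 genes at a like Takara level, 25.4% had as few or fewer NEB reads. Of the 511 with at least 60% GC, 66.3% had. IER2 overlaps exons of 2 lncRNA genes on the opposite strand, and how reads of the shared stretches were counted is likewise not known.

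DUSP1 (ENSG00000120129; chromosome 5, 172768096 to 172771195, minus strand, 4 exons) encodes the dual-specificity phosphatase that inactivates MAP kinases. It had reads in 8 Takara cells, up to 23 reads in G1 (18.2 CPM, median 6.53 CPM), in 4 G&T cells, up to 7.43 CPM in A1 (6 reads) and 7.32 CPM in E2 (7 reads), and in no NEB cell. Takara cells thus reached higher than G&T cells while 3 of them shared the value of 0. Pooled DUSP1 was 7 CPM in Takara (5.57 to 8.69) and 1.89 CPM in G&T (1.12 to 2.99), a ratio of 3.69 (2.20 to 6.54) and a log2 ratio of 1.47. The measured level was at least 18.6-fold higher in Takara and at least 5.04-fold higher in G&T than the 3-read limit of NEB, with exact lower limits of the ratios of 14.8 and 3.69. Of 3206 genes at a like Takara level, 27.7% had no NEB read, and 8.6% had as few G&T reads as DUSP1.

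MYC (ENSG00000136997; chromosome 8, 127735434 to 127742951, plus strand, 3 exons) encodes a growth-promoting transcription factor and was the member with the most reads in Takara and NEB. In Takara it was read in 10 cells, from 0 in A2 over a median of 25.1 CPM to 103 CPM in H1 and 167 CPM in E2. In NEB it was read in 9 cells, from 0 in C1 and G2 over a median of 5.90 CPM to 122 CPM in E2. In G&T it was read in 7 cells, with a median of 18.0 CPM and a highest value of 54.7 CPM in B1. A few cells of high level were thus present in each protocol, and the ranges overlapped.

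Pooled MYC was 42.1 CPM in Takara (38.4 to 46.0), 27.7 CPM in NEB (24.2 to 31.6) and 17.9 CPM in G&T (15.3 to 20.8), 3 intervals that did not overlap. Takara was 2.35 times G&T (1.97 to 2.82), a log2 ratio of 1.19 that fell under 2-fold without Takara E2 (0.76) or without Takara H1 (0.93). Takara was 1.52 times NEB (1.29 to 1.79), and passed 2-fold without NEB E2 (1.2 against 0.59 on the log2 scale). NEB was 1.55 times G&T (1.26 to 1.90), and without NEB E2 the log2 ratio of G&T over NEB was 0.01. With all deposited cells, among them NEB B2 with 333 MYC reads, the log2 ratio turned to −0.55 for Takara over NEB and stood at −1.85 for G&T over NEB. The median cell gave another order, with G&T above NEB (log2 ratio 1.46 against −0.60 for the pooled reads). MYC shares exonic sequence with CASC11 on the opposite strand.

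Per kilobase of canonical transcript, the order of the pooled levels differed between the protocols. In G&T it was led by JUN at 12.8 CPM per kb (11.6 to 14.2), followed by IER2 at 5.74, MYC at 4.81, JUNB at 4.60 and ATF3 at 4.45, whose intervals overlapped from one to the next. In Takara MYC stood at 11.3 CPM per kb (10.3 to 12.4) and JUNB at 10.7 (9.39 to 12.2), which overlapped, then IER2 at 7.93 (6.86 to 9.12) and JUN at 4.72 (4.05 to 5.46), each clear of the one above. In NEB MYC stood at 7.45 CPM per kb (6.50 to 8.50), clear of JUND at 2.41 (1.69 to 3.32). FOSB and EGR1 were the lowest in both G&T and Takara.

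Each protocol had 110 combinations of a gene and a cell. A read was present in 63 of them in G&T, in 71 in Takara, and in 26 in NEB. A cell had reads of 4 to 8 of the 10 genes in G&T (median 6), 3 to 9 in Takara (median 7) and 0 to 4 in NEB (median 3). The NEB cell without a read of any of them was C1, which held 653351 reads on genes. Thinning every kept cell to the 624772 reads of the smallest left 59, 68 and 23 combinations. The medians were then 5, 6 and 2 members per cell. Fewer genes of any kind were read in NEB at this depth. Its median thinned cell had reads of 5070 genes, where that of G&T had 11175 and that of Takara 10621. How much of the gap in the members goes with this wider gap was not tested. A read in every cell was found for JUNB and IER2 in Takara, which is 2 of the 9 members with at least 10 reads, where 51.7% of 12774 genes had one. No member had one in G&T (0 of 7, beside 40.1% of 13907 genes) or NEB (0 of 5, beside 13.9% of 10013 genes). Only IER2 kept at least 5 reads in every Takara cell.

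**Figure D3:**
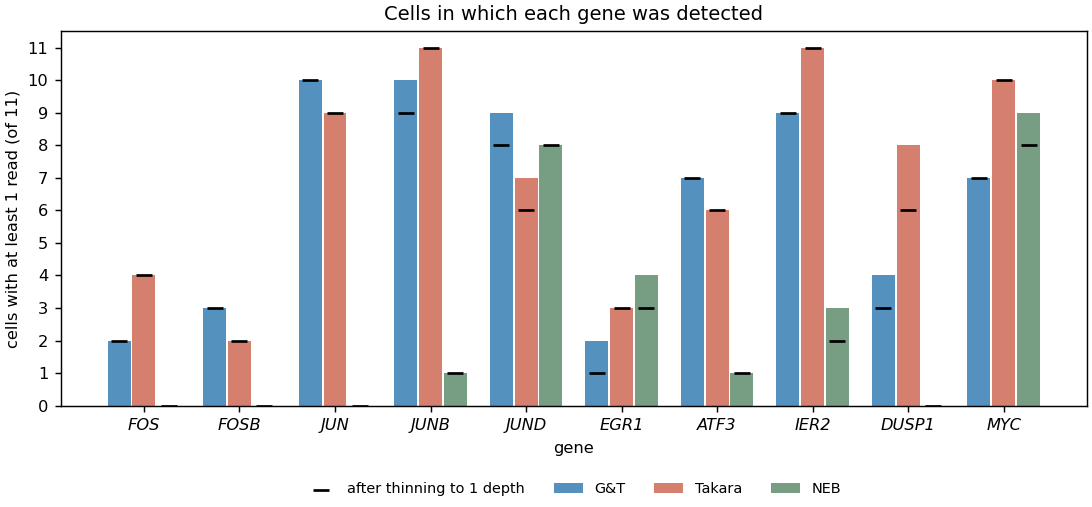
Number of kept cells, of 11, with at least 1 read of each gene in G&T (blue), Takara (red) and NEB (green), with black dashes for the number after every cell was thinned to 624772 reads. JUN goes from 10 and 9 cells to 0 in NEB, while JUND (9, 7 and 8 cells) and MYC (7, 10 and 9 cells) were read in all 3 protocols.

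Cell-to-cell spread was set beside that of genes at a like level, meaning a mean CPM within 2-fold. In Takara 7 of 10 members had a CV, the SD over the mean, above the median of such genes. MYC had a CV of 117% where the median was 51.2%, higher than 98.7% of 3560 genes at its level. JUN (145%), ATF3 (199%) and FOS (178%) were above 97.0%, 95.2% and 94.0% of theirs. IER2 was at the other end, with a CV of 49.5%, above 15.2% of genes at its level. In G&T 5 of 10 members were above the median and none was above more than 73.8% of its like genes, the value of IER2. JUN, at a higher level in G&T, had a CV of 79.8% there.

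In NEB 1 of the 6 members with reads was above the median, namely ATF3. A gene read in 1 of 11 cells has the highest CV that can be had, 332%, and this was the median itself for genes at the level of JUNB, EGR1 and IER2. JUND had a CV of 125% in NEB, lower than all but 3.66% of 2375 genes at its level. It was thus read more evenly over the NEB cells than most genes of its abundance.

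**Figure D4:**
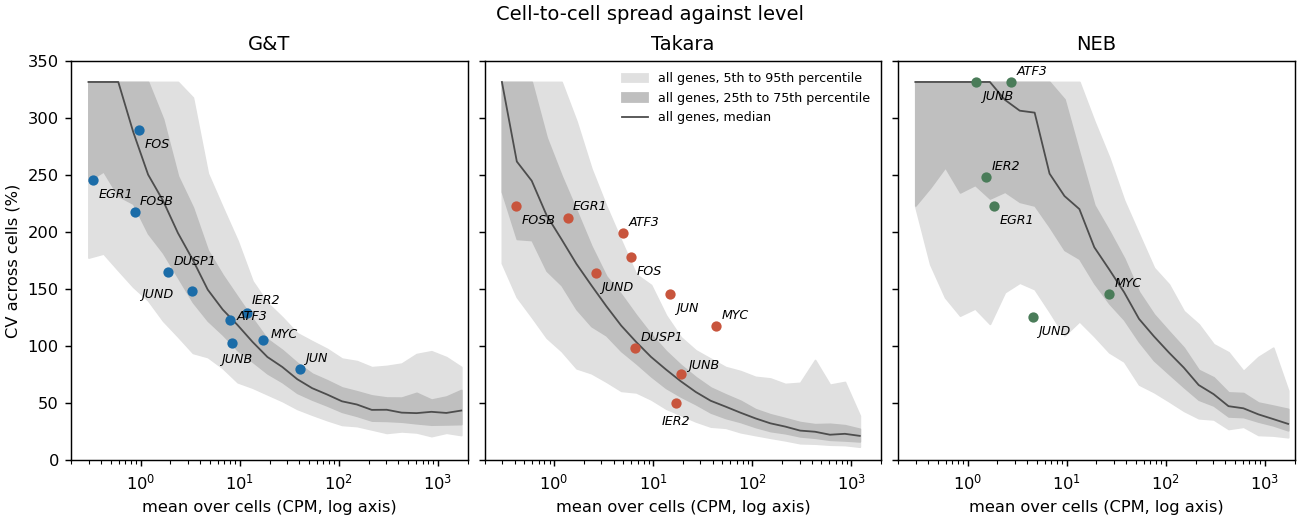
CV across the 11 cells in percent against the mean level in CPM on a log axis, in 1 panel per protocol, with points for the members and grey bands for the 5th to 95th and 25th to 75th percentiles of all genes in steps of level, and a line for their median. MYC, JUN, ATF3 and FOS stand at or above the upper edge of the Takara band and JUND near the lower edge of the NEB band.

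The members did not rise and fall together as 1 group from cell to cell. Among members read in at least 6 of the 11 cells, the median Spearman rho over pairs was −0.064 in G&T (15 pairs of 6 genes, n = 11 cells) and −0.047 in Takara (21 pairs of 7 genes), beside 0.057 and 0 over all pairs of genes so detected. In NEB JUND and MYC alone could be paired (rho 0.244). Of the 15 pairs present in both G&T and Takara, 4 had a positive rho in both and 7 a negative one in both. The pairs share genes, and the same counts were not made over all pairs of genes, so they set no mark for these members. These are descriptions over cells that share a protocol and a scale by depth.

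Within the AP-1 group, JUN and JUND had a rho of 0.515 in G&T and 0.751 in Takara, and leaving out single cells gave 0.438 to 0.742 and 0.693 to 0.897. JUND had at least 5 reads in only 1 G&T cell and 2 Takara cells, so its ranks in all its pairs rest largely on differences of a few reads. JUND and ATF3 stood at 0.499 and 0.512, although Pearson's r of their CPM was −0.015 in G&T. JUN and ATF3 stood at 0.395 and 0.521, but in Takara at 0.229 once the 2 cells farthest from the median of JUN were left out. MYC and ATF3 ran the other way, at −0.662 in G&T and −0.315 in Takara. In G&T the 4 cells with no MYC read, A2, E2, G1 and H1, all had ATF3 reads. JUNB, also of the AP-1 group, did not rise with the others. Its rho with JUN, JUND and ATF3 was −0.082, −0.064 and −0.493 in G&T. In Takara these values were −0.014, −0.074 and −0.286. JUNB and MYC had a rho of 0.642 in G&T and −0.073 in Takara.

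**Figure D5:**
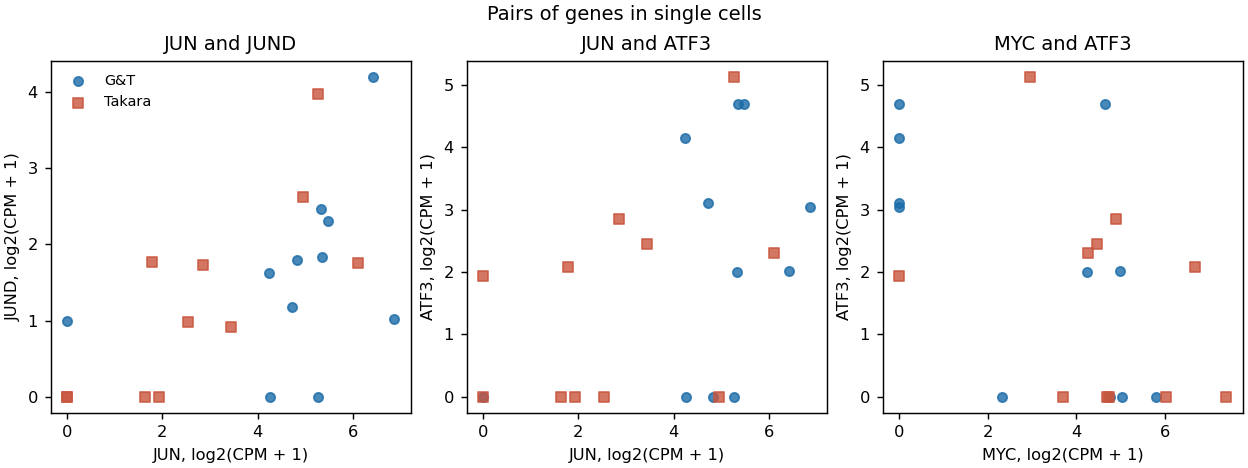
Levels of JUN and JUND, JUN and ATF3, and MYC and ATF3 as log2(CPM + 1) in single G&T cells (circles) and Takara cells (squares). JUN and JUND had a positive rho in both protocols (0.515 and 0.751), though JUND had few reads in most cells. Cells of high ATF3 tend to be low in MYC (rho −0.662 and −0.315).

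Measures of cell quality moved with the members in some protocols. In G&T the summed level of the 10 genes had a rho of −0.736 with the percentage of mitochondrial reads and 0.545 with library size. In Takara the number of members detected had a rho of 0.696 with library size. In NEB it had a rho of 0.801 with the number of genes detected and −0.590 with the percentage of ERCC reads. Each is over 11 cells, and the part of these measures in the results was not tested. Transcript GC content ran from 48.8% (MYC) to 69.9% (JUND), and 3 of the 10 (JUNB, JUND and IER2) were at 60% or more, as were 13.6% of 15222 genes.

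The genes whose levels over cells were most like the mean scaled level of the members, by the mean of the rho values of the 3 protocols, were MDK (0.651), DCAF10 (0.574), RBM7 (0.524), ZNF644 (0.523) and APTX (0.515), out of 4420 genes read in at least 6 of the 11 cells of every protocol. The 99th percentile of these 4420 values was 0.437, and MDK, a growth factor, had 0.645 in G&T, 0.755 with Takara, and 0.553 with NEB.

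A further 49 immediate early genes, among them EGR, IER, KLF, NR4A, ZFP36, DUSP and ID family members, were not uniformly low in NEB. G&T had reads for 42 of them, Takara for 41 and NEB for 26. Of those with enough reads, 8 of 41 were past 2-fold higher in Takara than in G&T and 14 were lower. Between Takara and NEB 22 of 39 were higher in Takara and 6 in NEB, and between G&T and NEB 20 of 34 were higher in G&T and 7 in NEB. Of all genes compared, 16.2% were higher in Takara than in G&T and 24.5% lower. The shares higher in Takara and in NEB were 42.8% and 23.3%, and those higher in G&T and in NEB 48.4% and 19.1%. The median log2 ratios of the listed genes were 0.09, 1.52 and 1.54. Their summed pooled level was nevertheless highest in NEB, at 2077 CPM beside 1238 in G&T and 930 in Takara.

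The genes behind that sum were ZFP36L1 and ZFP36L2, which encode RNA-binding proteins that bring about mRNA decay. ZFP36L1 stood at 956 CPM in NEB beside 165 in G&T and 40.2 in Takara, and NEB over Takara was its largest gap (23.8 times, 21.7 to 26.2). ZFP36L2 stood at 535, 52.0 and 38.5 CPM, and was 10.3 times higher in NEB than in G&T (9.37 to 11.3). DUSP4, a MAP kinase phosphatase like DUSP1, went the other way falling from 171 CPM in G&T over 106 in Takara to 26 in NEB. IER3 had the largest log2 ratios over NEB with 1 CPM added, with 76.8 CPM in G&T and 33.5 in Takara against 1.00 in NEB (76.6 times, 38.7 to 178, and 33.4 times, 16.8 to 78.0). TRIB1 was highest in Takara, with 161 reads against 2 in G&T (65.3 times, 17.8 to 544) and 1 in NEB. As a plain ratio that was 110 times NEB (19.4 to 4354), above the 33.4 of IER3, though with an interval that holds it. DUSP5 was 10.7 times higher in G&T than in Takara (4.91 to 27.9).

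Of 12 other genes whose products join AP-1 and ATF pairs, G&T had reads for 8, Takara for 10 and NEB for 5. Takara was past 2-fold higher than G&T for 1 of 7 and lower for 3, and both Takara and G&T were higher than NEB for 5 of 8 and lower for 2. Of all genes compared, 16.2% were higher in Takara than in G&T and 24.5% lower. Higher and lower than NEB were 42.8% and 23.3% for Takara, and 48.4% and 19.1% for G&T. ATF4, the factor of the integrated stress response, was the most abundant of the 12 at 317, 150 and 65.1 CPM in G&T, Takara and NEB. ATF2 ran in the reverse order, at 16.7, 39.2 and 69.98 CPM, and ATF7 stood at 19.1, 15.3 and 35.5 CPM.

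The 30 genes upstream of the members, the SRF, ELK and CREB factors with their coactivators and the RAS and MAP kinase cascade, were fixed as a further list. Reads were found for 29 of them in G&T and in Takara and for 26 in NEB. Takara was past 2-fold higher than G&T for 3 of 28 and lower for 6, Takara was higher than NEB for 9 of 28 and lower for 9, and G&T was higher than NEB for 8 and lower for 4. The all-gene shares, higher and lower, were 16.2% and 24.5%, 42.8% and 23.3%, and 48.4% and 19.1% in the same order. Among the most abundant of the 30 were MAPK14 (74.2, 83.0 and 39.4 CPM in G&T, Takara and NEB) and NRAS (42.9, 41.7 and 85.7 CPM). ELK1, an ETS partner of serum response factor, had no NEB read, against 21.9 CPM in G&T and 22.4 CPM in Takara.

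Of 12 genes of the MYC network, Takara was past 2-fold higher than G&T for 2 of 11 and lower for 3, Takara was higher than NEB for 4 and lower for 2, and G&T was higher than NEB for 7 and lower for 1. In the same order, the shares of all genes were 16.2% and 24.5%, 42.8% and 23.3%, and 48.4% and 19.1%. MLX stood at 85.9, 162 and 17.7 CPM in G&T, Takara and NEB, and MAX, the obligate partner of MYC, at 25.1, 36.4 and 17.9 CPM. FBXW7, which targets MYC protein for degradation, was 16.9 times higher in NEB than in Takara, at 118 against 7 CPM, with 12 CPM in G&T.

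The 12 heat shock and ubiquitin genes that are often read beside immediate early genes in dissociated cells had reads in all protocols, and 11, 12 and 7 of them in every kept cell of G&T, Takara and NEB. Of all genes with at least 10 reads in the protocol, 40.1%, 51.7% and 13.9% had a read in every kept cell. Takara was past 2-fold higher than G&T for 1 of 12 and lower for 0, Takara was higher than NEB for 6 and lower for 1, and G&T was higher than NEB for 3 and lower for 1. Among all genes those shares were 16.2% and 24.5%, 42.8% and 23.3%, and 48.4% and 19.1%. The summed level of the 12 genes was 11688, 13690 and 12941 CPM in G&T, Takara and NEB. HSP90AA1 stood at 4346, 2222 and 5436 CPM, HSP90AB1 at 2534, 2806 and 3677 CPM, and HSPA8 at 1828, 4570 and 1122 CPM.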

How the data were processed

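The authors trimmed reads with Trim Galore, aligned them to GRCh38 with STAR and took its reads per gene. The deposited counts are raw read counts per gene and cell, 1 table per protocol, without molecular identifiers or filters. The annotation release is not given in the sources used here. Rows of 92 ERCC spike-ins and 4 classes of unassigned reads (17.7% to 80.0% of a cell's reads, outside NEB F1 at 4.61%) stayed out of CPM. Cells failed quality with under 1000 genes, a library (genes and ERCC) under 600000, over 30% mitochondrial or over 25% ERCC reads. Places, lengths, GC and overlaps came from GENCODE 44. The 10 members and all lists were chosen with earlier results of these data known, and the like-level and GC comparisons were added after the values were seen. No test was made, since each protocol is 1 sample. Named genes are all members, the 3 most abundant of each other list, the largest ratio per pair and direction of the other immediate early genes, and the 5 most like genes. The values of 1 gene that this rule names are not reported here. ELK1 and the markers named were chosen after their values were seen. Intervals are exact (95%). Tools were matplotlib 3.10.9, scipy 1.17.1, pandas 2.3.3 and numpy 2.4.6 under Python 3.11.15, with scaling factors from edgeR 4.0.16 and DESeq2 1.42.0 under R 4.3.3. Steps were tested on simulated data. Alternatives changed the cells kept, denominators, scaling, pooling, pseudocount, filter, depth and correlation.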

Additional observations from a re-analysis of the deposited data

Results flagged for a closer look

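Reads of the members also lay in cells outside the 33 kept. NEB B2 held 339 member reads, of which 333 were MYC (739 CPM, above the 167 CPM of the highest kept cell of any protocol), 5 JUN and 1 JUND. G&T C2, with 33.7% mitochondrial reads, held 130 member reads, among them 57 of JUN (80.8 CPM), 43 of ATF3 (60.9 CPM) and 19 of IER2. G&T F1 held 32 member reads, with JUNB (11 reads) and JUN (9 reads) in the lead. They stand out because they lie in cells the comparisons left out and exceed the limit of 3 reads.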

How the results depend on the processing

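No paired analysis was possible because the labels give plate wells and no replicate numbers, and no result comes from a test. No log2 ratio past 2-fold changed its sign under any alternative run. Of the counts of members past 2-fold, Takara over G&T (4) became 2 with the median cell and 1 with 5 CPM added, G&T over Takara (1) became 2 with all deposited cells, G&T over NEB (5) became 3 with 5 CPM added, and NEB over G&T (0) became 1 with all deposited cells, TMM factors, median-of-ratios factors, the mean of the cells' CPM, 0.1 CPM added, or counts under 3 reads set to 3 reads, an alternative chosen after seeing the data. With all deposited cells ATF3 joined JUN (−1.15 for Takara over G&T), and MYC made the call of NEB over G&T (−1.85 for G&T over NEB, with NEB B2) and EGR1 the others. With 5 CPM added, FOS (0.92), JUNB (0.88) and DUSP1 (0.80) lost the call of Takara over G&T, and ATF3 (0.86) and DUSP1 (0.46) that of G&T over NEB. With the median cell, FOS (0.00) and MYC (0.46) lost that of Takara over G&T, FOS (0.00) that of Takara over NEB and DUSP1 (0.00) that of G&T over NEB, while ATF3 (1.93) and MYC (1.92) gained that of Takara over NEB and MYC (1.46) that of G&T over NEB. Members read in every Takara cell (2) became 1 with at least 5 reads and 0 with all deposited cells. With each cell left out in turn, the counts past 2-fold ran from 2 to 4 (Takara over G&T), 1 to 2 (G&T over Takara), 0 to 1 (NEB over G&T) and 0 to 1 (NEB over Takara), and members above the median CV from 3 to 5 in G&T, 5 to 8 in Takara and 0 to 1 in NEB. Median-of-ratios factors shifted the log2 ratio of all genes by −0.19 (G&T over NEB) and −0.11 (Takara over NEB), and ERCC in the denominator by 0.12 and 0.13. Of 108 counts or rho values of the members under the other settings, 96 counted as unchanged. For counts this meant within 1.5 times, and for the median rho a move smaller than its leave-one-cell-out standard error. At these depths a gene under 0.256 to 0.376 pooled CPM could not be told from 0.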
